A study of Mus musculus with 24 samples.

Results

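The genes described here encode muscle actins and the proteins that bind and regulate actin filaments in contractile cells: Acta1, Acta2, Actc1, Actg2, Tagln, Cnn1, Cnn2, Myl9, Tpm1 and Fhl2. Their probes were found by matching the accession of each probe to a RefSeq gene symbol, which gave 13 probes for 9 of the 10 genes, out of 41174 probes and 16358 genes with a symbol on the array. Acta2 had 3 probes, Tagln and Tpm1 had 2 each, and the other genes had 1. No probe was matched to Myl9, the regulatory light chain of smooth muscle myosin, which was not analysed here. All 13 probes were well above background in the cell channel on all 24 arrays, so the filter on dim probes removed no member.

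The cells were R1, a mouse embryonic stem (ES) cell line, infected with a lentivirus that carried a short hairpin RNA. On day 13 after infection the groups were shMed12-1 and shMed12-2, each directed at Med12, shCdk8-1 and shCdk8-2, each directed at Cdk8, and the non-targeting control shNTC. On day 8 they were shCdk8-1, shCdk8-2 and shNTC. Each of the 8 groups had 3 arrays. Every group, controls included, consisted of infected cells, and no uninfected cells were profiled. Cdk8 and Med12 encode the kinase and its activating subunit in the kinase module of Mediator, which joins transcription factors to RNA polymerase II. The labels call the replicates biological without saying whether they were separate cultures or infections, so the p-values below rest on the spread among arrays of a group, which may be technical.

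Muscle actins are tissue-restricted relatives of the cytoplasmic actins: Acta1 is the skeletal form, Actc1 the cardiac form, and Acta2 and Actg2 are the vascular and enteric smooth muscle forms. Several are also made by cells that are not muscle. Serum response factor (SRF) binds an A/T-rich element called the CArG box near many of these genes, and its partners of the MRTF family enter the nucleus when monomeric actin is used up by filament growth. Transgelin (Tagln), the calponins (Cnn1, Cnn2) and tropomyosin (Tpm1) bind along actin filaments, and Fhl2 is a LIM-domain cofactor that binds SRF.

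The promoters of these genes were searched for the CArG box and other motifs of muscle genes. The RefSeq promoter table of build GRCm38.p6 (250 bases before to 50 bases after each start) held 9 promoters of 8 members, 2 of them for Fhl2, and none for Tagln and Actg2. A perfect CArG box lay in 6 of these 9 promoters, those of Acta1, Actc1, Cnn2, Myl9 and both Fhl2 starts, and in 1.629% of all 32851 promoters of that length. A CArG box with 1 base off lay in 5 of the 9 and in 19.868% of all promoters. The other motifs, searched on both strands, were the MCAT element, CATTCCT, found in Acta1, Acta2 and Tpm1 and in 5.361% of all promoters, and the TATA box. Its letters TATAAA lay in the windows of Acta1, Actc1 and the first Fhl2 start and in 13.616% of all promoters. The match ran from 7 to 2 bases before the start in Acta1. In Actc1 it lay after the start, outside the bases printed below. At the first Fhl2 start it was on the opposite strand, from 28 to 23 bases before the start. A TATA box can overlap a CArG box, but no match in a member did. A match describes the letters in this window and is not evidence of binding. The 250 bases before the start are printed 5′ to 3′ for the actins and calponins that had a promoter entry and for both Fhl2 starts. CArG boxes are in capitals, as are the boxes with 1 base off for Acta2.
Acta1, chr8:123894776-123895025, reverse strand: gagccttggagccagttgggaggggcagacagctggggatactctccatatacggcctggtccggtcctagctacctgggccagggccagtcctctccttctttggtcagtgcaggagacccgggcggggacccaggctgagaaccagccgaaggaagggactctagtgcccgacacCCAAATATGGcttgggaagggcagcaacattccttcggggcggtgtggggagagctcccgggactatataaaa
Actc1, chr2:114052876-114053125, reverse strand: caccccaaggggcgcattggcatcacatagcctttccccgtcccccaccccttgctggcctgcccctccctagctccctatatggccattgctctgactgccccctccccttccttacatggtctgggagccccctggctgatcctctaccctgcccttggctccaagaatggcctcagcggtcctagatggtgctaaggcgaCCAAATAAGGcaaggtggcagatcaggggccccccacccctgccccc
Acta2, chr19:34255374-34255623, reverse strand: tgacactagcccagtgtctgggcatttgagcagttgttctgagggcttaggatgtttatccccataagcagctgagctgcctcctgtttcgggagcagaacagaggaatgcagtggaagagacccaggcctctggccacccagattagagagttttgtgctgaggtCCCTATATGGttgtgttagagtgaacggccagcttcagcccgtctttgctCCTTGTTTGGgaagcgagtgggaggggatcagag
Cnn2, chr10:79988350-79988599, forward strand: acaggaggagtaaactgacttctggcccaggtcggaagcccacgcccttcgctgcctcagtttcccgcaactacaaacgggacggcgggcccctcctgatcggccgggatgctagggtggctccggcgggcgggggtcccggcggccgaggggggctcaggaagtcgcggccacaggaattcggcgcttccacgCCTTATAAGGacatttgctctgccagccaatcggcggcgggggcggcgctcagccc
Cnn1, chr9:22099003-22099252, forward strand: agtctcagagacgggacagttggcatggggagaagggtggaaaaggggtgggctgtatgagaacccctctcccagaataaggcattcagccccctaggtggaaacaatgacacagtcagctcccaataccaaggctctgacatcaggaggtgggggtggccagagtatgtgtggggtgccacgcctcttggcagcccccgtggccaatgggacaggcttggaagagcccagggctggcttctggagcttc
Fhl2 start 1, chr1:43196762-43197011, reverse strand: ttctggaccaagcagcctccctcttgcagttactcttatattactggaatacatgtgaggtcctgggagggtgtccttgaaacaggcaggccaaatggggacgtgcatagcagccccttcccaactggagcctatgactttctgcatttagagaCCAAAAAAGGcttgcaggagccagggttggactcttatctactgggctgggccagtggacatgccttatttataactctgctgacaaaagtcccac
Fhl2 start 2, chr1:43163962-43164211, reverse strand: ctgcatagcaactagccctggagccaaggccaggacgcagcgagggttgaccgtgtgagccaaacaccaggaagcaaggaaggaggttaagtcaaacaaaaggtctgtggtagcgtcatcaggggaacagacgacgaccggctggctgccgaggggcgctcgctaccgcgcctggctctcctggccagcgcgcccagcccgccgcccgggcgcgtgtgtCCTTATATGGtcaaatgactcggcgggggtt
In Acta1 the box ran from 73 to 64 bases before the start, in Actc1 from 47 to 38 and in Cnn2 from 56 to 47. Acta2 had no perfect box, and its boxes with 1 base off ran from 84 to 75 and from 34 to 25 bases before the start. The Cnn1 window held none of the 4 patterns.

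All values are log2 ratios of the cells (Cy5) to a common mouse reference RNA (Cy3), after background correction and loess normalization within each array. A value of 0 is the level in the reference. A ratio orders the samples for 1 probe, and levels of different probes were not compared. Differences between groups are differences of these log2 ratios with the standard error (SE) of a limma fit over all arrays, and a probe was called at a Benjamini-Hochberg adjusted p below 0.05 over all 28240 probes tested. Between 48.9% and 76.1% of the spots of an array were well above background and 0 were saturated. On 2 arrays log ratios were compressed toward 0, namely replicate 3 of shMed12-1 on day 13 and replicate 1 of shCdk8-1 on day 8. Their slopes on the other arrays of their group were 0.79 and 0.78, against 0.97 to 1.13 on the other 22 arrays. The arrays came from 8 slides. All shMed12 arrays lay in position 4 and all day 13 shCdk8 arrays in position 3 of a slide. The shNTC arrays of day 13 lay in positions 2 and 3, and all but 1 of the day 8 arrays in position 1. Position cannot be told apart from Med12 knockdown or from the day.

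The targeted genes were lower in every knockdown. Med12 differed from shNTC by -1.0 with shMed12-1 and by -0.88 with shMed12-2. Cdk8 differed by -0.95 with shCdk8-1 and by -0.64 with shCdk8-2 on day 13, and by -0.71 and -0.31 on day 8. All 12 ES cell markers of a fixed list were well above background on every array, and their mean log2 ratio per array ran from 3.88 to 5.09.

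The members were chosen by earlier measured differences between each hairpin and shNTC in these data, so those differences are given as a description without p-values. With Med12 knockdown on day 13 all 13 probes were called higher, with shMed12-1 (12.1% of all probes were called higher) and with shMed12-2 (8.5%). With Cdk8 knockdown on day 13, 12 of 13 were called higher and 0 lower with shCdk8-1 (5.85% and 5.89% of all probes), and 10 higher and 0 lower with shCdk8-2 (5.55% and 5.43%). On day 8 the direction was opposite: 7 were called lower and 0 higher with shCdk8-1 (8.41% and 7.69% of all probes), and 11 lower and 0 higher with shCdk8-2 (6.56% and 7.1%). The median log2 difference over the 13 probes was 1.33 and 1.24 with shMed12-1 and shMed12-2. With shCdk8-1 and shCdk8-2 it was 0.62 and 0.50 on day 13, and -0.29 and -0.49 on day 8. With median centring of the arrays in place of loess, 4 and 2 probes were called on day 13 with these hairpins, and 1 and 6 on day 8. Over all probes that setting called 395 and 248 on day 13 and 906 and 380 on day 8. With slide as a block, 11 of 13 were called with shMed12-1, where Acta2 probe 2 and Actg2 lost their call. For the Cdk8 hairpins the slide block left 8 and 9 on day 13 and 3 and 8 on day 8. On day 8 this block removed the calls of Acta2 probes 1 and 2, Cnn1 and Cnn2 with shCdk8-1. With shCdk8-2 it removed those of Acta2 probe 2, Actc1 and Cnn2. Over all probes it called 1775 with shMed12-1. With shCdk8-1 and shCdk8-2 it called 948 and 1471 on day 13 and 952 and 1631 on day 8. The median over all probes tested ran from -0.0027 to 0.0025 in these 6 comparisons. Since the arrays measure bulk RNA, a change in the number of cells that express a gene and a change in RNA per cell cannot be told apart.

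**Figure D1:**
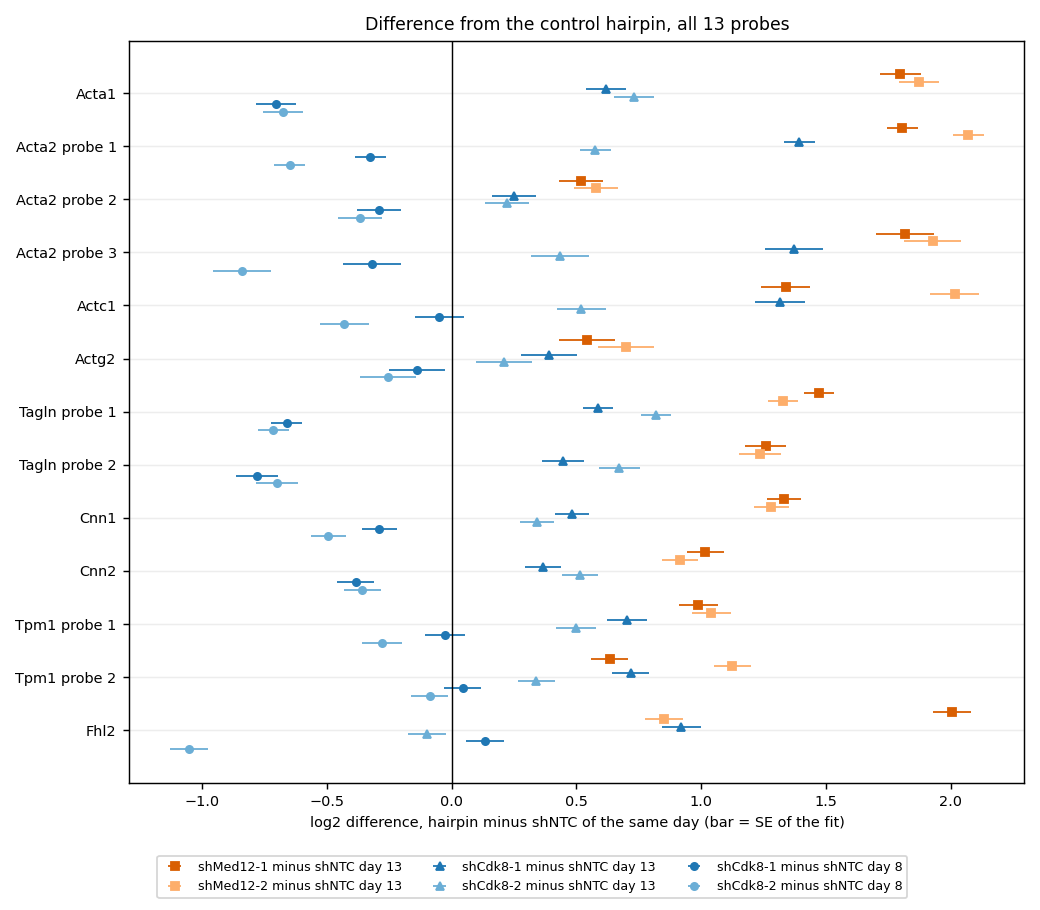
Log2 difference of each of the 13 probes (rows) between a hairpin and shNTC of the same day, with the SE of the fit as bars (3 arrays per group); squares are Med12 knockdown and triangles Cdk8 knockdown on day 13, and circles are day 8. Day 13 values lie right of 0 apart from Fhl2 with shCdk8-2 at -0.10, day 8 values lie mostly left of 0, and Acta2 probe 2 and Actg2 lie closer to 0 than the other probes with each Med12 hairpin.

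Acta1, the skeletal muscle actin, was above the control on day 13 and below it on day 8. On day 13 its log2 ratios were 2.20, 2.14 and 2.16 on the shMed12-1 arrays and 2.22, 2.30 and 2.20 on the shMed12-2 arrays. In the Cdk8 groups and the control of that day they were 1.02, 0.99 and 0.95 with shCdk8-1 and 1.14, 1.05 and 1.11 with shCdk8-2, against 0.38, 0.35 and 0.37 with shNTC. The Med12 arrays were highest, the Cdk8 arrays intermediate and the shNTC arrays lowest, without overlap between the 3. The differences from shNTC were 1.80 and 1.87 with shMed12-1 and shMed12-2 (SE 0.081, or 3.48-fold and 3.67-fold) and 0.62 and 0.73 with shCdk8-1 and shCdk8-2. On day 8 they were -1.52, -1.84 and -1.87 on the shCdk8-1 arrays and -1.86, -1.70 and -1.60 on the shCdk8-2 arrays, against -0.96, -0.99 and -1.18 on the shNTC arrays. Every Cdk8 knockdown array lay below every control array, with differences of -0.70 and -0.68.

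Acta2, the vascular smooth muscle actin, was read by 3 probes. Probe 1, the brightest and the mean of 10 spots per array, gave -1.12, -1.12 and -1.07 on the shMed12-1 arrays and -0.84, -0.82 and -0.87 on the shMed12-2 arrays on day 13. In the other groups of that day it gave -1.54, -1.49 and -1.51 with shCdk8-1 and -2.30, -2.38 and -2.32 with shCdk8-2, against -2.89, -2.83 and -3.01 with shNTC. The 5 groups did not overlap, in the order shMed12-2, shMed12-1, shCdk8-1, shCdk8-2 and shNTC from highest to lowest. The differences from shNTC were 1.81 with shMed12-1 (SE 0.062), 2.07 with shMed12-2 (4.2-fold), 1.39 with shCdk8-1 (2.63-fold) and 0.58 with shCdk8-2. Its day 8 values were -2.84, -3.01 and -3.06 on the shCdk8-1 arrays and -3.22, -3.39 and -3.27 on the shCdk8-2 arrays, against -2.57, -2.71 and -2.66 on the shNTC arrays. Every knockdown array was below the control arrays, by differences of -0.33 and -0.65.

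The other Acta2 probes differed in size. Probe 3 followed probe 1, with differences on day 13 of 1.82 and 1.93 for the Med12 hairpins and 1.37 and 0.44 for the Cdk8 hairpins, and on day 8 of -0.32 and -0.84 (SE 0.116). Its day 8 values with shCdk8-1 were -1.66, -2.23 and -2.20, where the array nearest to the control is one of those with compressed ratios, and without both such arrays the difference was -0.50 and called. Probe 2 moved less on day 13. Its differences were 0.52 and 0.58 with the Med12 hairpins and 0.25 and 0.22 for the Cdk8 hairpins on that day, and the last 2 were not called. On day 8 it differed by -0.29 with shCdk8-1 and by -0.37 with shCdk8-2, both called lower. With shCdk8-1 on day 8, probes 1 and 3 differed by -0.33 and -0.32. The array files used here give no probe sequences, and actin genes share long stretches of near-identical coding sequence. Whether a probe also bound another actin transcript was not tested, so the size of each actin gene's difference is uncertain.

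**Figure D2:**
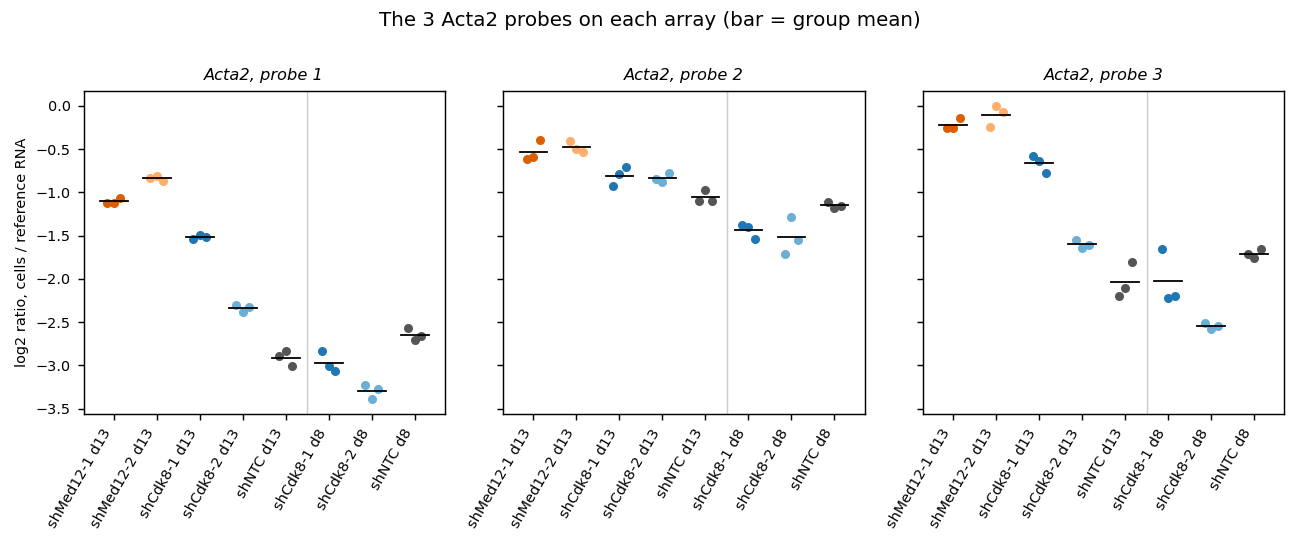
Log2 ratio to the reference RNA (vertical axis) of the 3 Acta2 probes on each of 24 arrays, by group, with bars at the group means. Probe 1 runs from -3.39 to -0.82 over all arrays, probe 2 from -1.72 to -0.40 and probe 3 from -2.58 to 0.00.

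Actc1, the cardiac actin, gave -0.93, -0.97 and -0.84 on the shMed12-1 arrays and -0.22, -0.23 and -0.26 on the shMed12-2 arrays on day 13. In the remaining groups of that day it gave -1.01, -0.85 and -0.96 with shCdk8-1 and -1.71, -1.81 and -1.68 with shCdk8-2, against -2.35, -2.16 and -2.25 with shNTC. All knockdown arrays of day 13 lay above the shNTC arrays, and the shMed12-1 and shCdk8-1 arrays overlapped each other. The differences were 1.34 and 2.02 (4.04-fold) with shMed12-1 and shMed12-2, and 1.32 and 0.52 with shCdk8-1 and shCdk8-2 (SE 0.099). Its day 8 values were -2.08, -2.49 and -2.62 on the shCdk8-1 arrays and -2.71, -2.95 and -2.67 on the shCdk8-2 arrays, against -2.31, -2.37 and -2.36 on the shNTC arrays. Only the shCdk8-2 arrays lay wholly below the control, with a difference of -0.43, and with shCdk8-1 the ranges overlapped (difference -0.05).

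Actg2, the enteric smooth muscle actin, showed the smallest differences of the 4 actin genes with Med12 knockdown when each is taken at its brightest probe: 0.54 and 0.70 (SE 0.112). On day 13 it gave -0.52, -0.64 and -0.44 on the shMed12-1 arrays and -0.35, -0.44 and -0.34 on the shMed12-2 arrays. The Cdk8 and control arrays gave -0.90, -0.55 and -0.61 with shCdk8-1 and -0.83, -1.03 and -0.73 with shCdk8-2, against -1.08, -1.04 and -1.11 with shNTC. All knockdown arrays lay above the shNTC arrays, but the difference was called with shCdk8-1 (0.39) and not with shCdk8-2 (0.21). With slide as a block the shCdk8-1 difference was 0.29 and not called, and the shMed12-1 difference was 0.38 and not called. Tagln probe 2, Cnn1 and Cnn2 also lost their call with shCdk8-1 on day 13 under that block. On day 8 Actg2 was not called with either hairpin (-0.14 and -0.25).

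Tagln, which encodes the actin-binding protein transgelin, had log2 ratios on its brighter probe of 1.50, 1.49 and 1.39 on the shMed12-1 arrays and 1.32, 1.35 and 1.27 on the shMed12-2 arrays on day 13. With the Cdk8 hairpins and shNTC the probe gave 0.60, 0.58 and 0.54 with shCdk8-1 and 0.83, 0.77 and 0.81 with shCdk8-2, against -0.03, 0.02 and -0.03 with shNTC. The Med12 arrays were above the Cdk8 arrays and these above the shNTC arrays, without overlap. The differences from shNTC were 1.47 and 1.33 with shMed12-1 and shMed12-2, and 0.59 and 0.82 with shCdk8-1 and shCdk8-2 (SE 0.061). On day 8 it gave -1.75, -1.99 and -1.91 on the shCdk8-1 arrays and -1.94, -1.99 and -1.88 on the shCdk8-2 arrays, against -1.11, -1.30 and -1.26 on the shNTC arrays. Every knockdown array lay below every control array, with differences of -0.66 and -0.71. Probe 2 had the same signs throughout, at 1.26 and 1.24 for the Med12 hairpins, and for the Cdk8 hairpins at 0.45 and 0.67 on day 13 and -0.78 and -0.70 on day 8.

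Cnn1, the calponin of differentiated smooth muscle, was above the reference RNA on all arrays. On day 13 it gave 4.0, 3.91 and 3.79 on the shMed12-1 arrays and 3.81, 3.86 and 3.89 on the shMed12-2 arrays. For Cdk8 knockdown and the control it gave 3.10, 3.00 and 3.06 with shCdk8-1 and 3.08, 2.76 and 2.89 with shCdk8-2, against 2.61, 2.52 and 2.57 with shNTC. All knockdown arrays lay above shNTC, with differences of 1.33 and 1.28 for shMed12-1 and shMed12-2 and of 0.48 and 0.34 for shCdk8-1 and shCdk8-2 (SE 0.069). Its day 8 values were 0.93, 0.83 and 0.78 on the shCdk8-1 arrays and 0.65, 0.63 and 0.65 on the shCdk8-2 arrays, against 1.18, 1.07 and 1.15 on the shNTC arrays. The knockdown arrays all lay below the control, by differences of -0.29 and -0.49.

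Cnn2, a calponin found also outside muscle, ran from -0.20 to 0.03 with Med12 knockdown and from -0.76 to -0.49 with Cdk8 knockdown on day 13, against -1.11 to -1.04 with shNTC. On day 8 it ran from -2.17 to -1.86 on the knockdown arrays, against -1.67 to -1.56 on the shNTC arrays. Its ranges did not overlap between Med12 knockdown, Cdk8 knockdown and shNTC. The differences were 1.02 and 0.91 for the Med12 hairpins and 0.37 and 0.51 for the Cdk8 hairpins on day 13, and -0.38 and -0.36 on day 8 (SE 0.073).

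Tpm1, a tropomyosin that lies along the actin filament, gave -0.40, -0.46 and -0.35 on the shMed12-1 arrays and -0.33, -0.35 and -0.38 on the shMed12-2 arrays on its brighter probe on day 13. For the other groups of that day it gave -0.66, -0.80 and -0.61 with shCdk8-1 and -0.90, -0.79 and -0.98 with shCdk8-2, against -1.41, -1.38 and -1.39 with shNTC. All knockdown arrays lay above shNTC, with differences of 0.99 and 1.04 for shMed12-1 and shMed12-2 and 0.70 and 0.50 for shCdk8-1 and shCdk8-2 (SE 0.079). Probe 2 gave 0.64 and 1.12 with the Med12 hairpins and 0.72 and 0.34 with the Cdk8 hairpins. On day 8 probe 1 differed by -0.03 with shCdk8-1, not called, and by -0.28 with shCdk8-2, called, and probe 2 by 0.05 and -0.09, not called. Tpm1 is spliced into many isoforms, and which of them each probe reads was not established here.

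Fhl2 differed between hairpins against the same gene. On day 13 its log2 ratios were -1.09, -1.16 and -0.97 on the shMed12-1 arrays and -2.27, -2.16 and -2.26 on the shMed12-2 arrays. The Cdk8 and control values were -2.08, -2.26 and -2.14 with shCdk8-1 and -3.11, -3.21 and -3.21 with shCdk8-2, against -3.06, -3.12 and -3.06 with shNTC. The shMed12-1 arrays were highest, shMed12-2 and shCdk8-1 overlapped each other above the control, and shCdk8-2 overlapped shNTC. The differences from shNTC were 2.01 (4.02-fold) and 0.85 with shMed12-1 and shMed12-2, and 0.92 and -0.10 with shCdk8-1 and shCdk8-2 (SE 0.077). On day 8 the values were -2.86, -3.12 and -3.24 on the shCdk8-1 arrays and -4.21, -4.33 and -4.23 on the shCdk8-2 arrays, against -3.16, -3.24 and -3.22 on the shNTC arrays. The shCdk8-2 arrays lay below all others (-1.05), and the shCdk8-1 arrays overlapped the control (0.13).

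**Figure D3:**
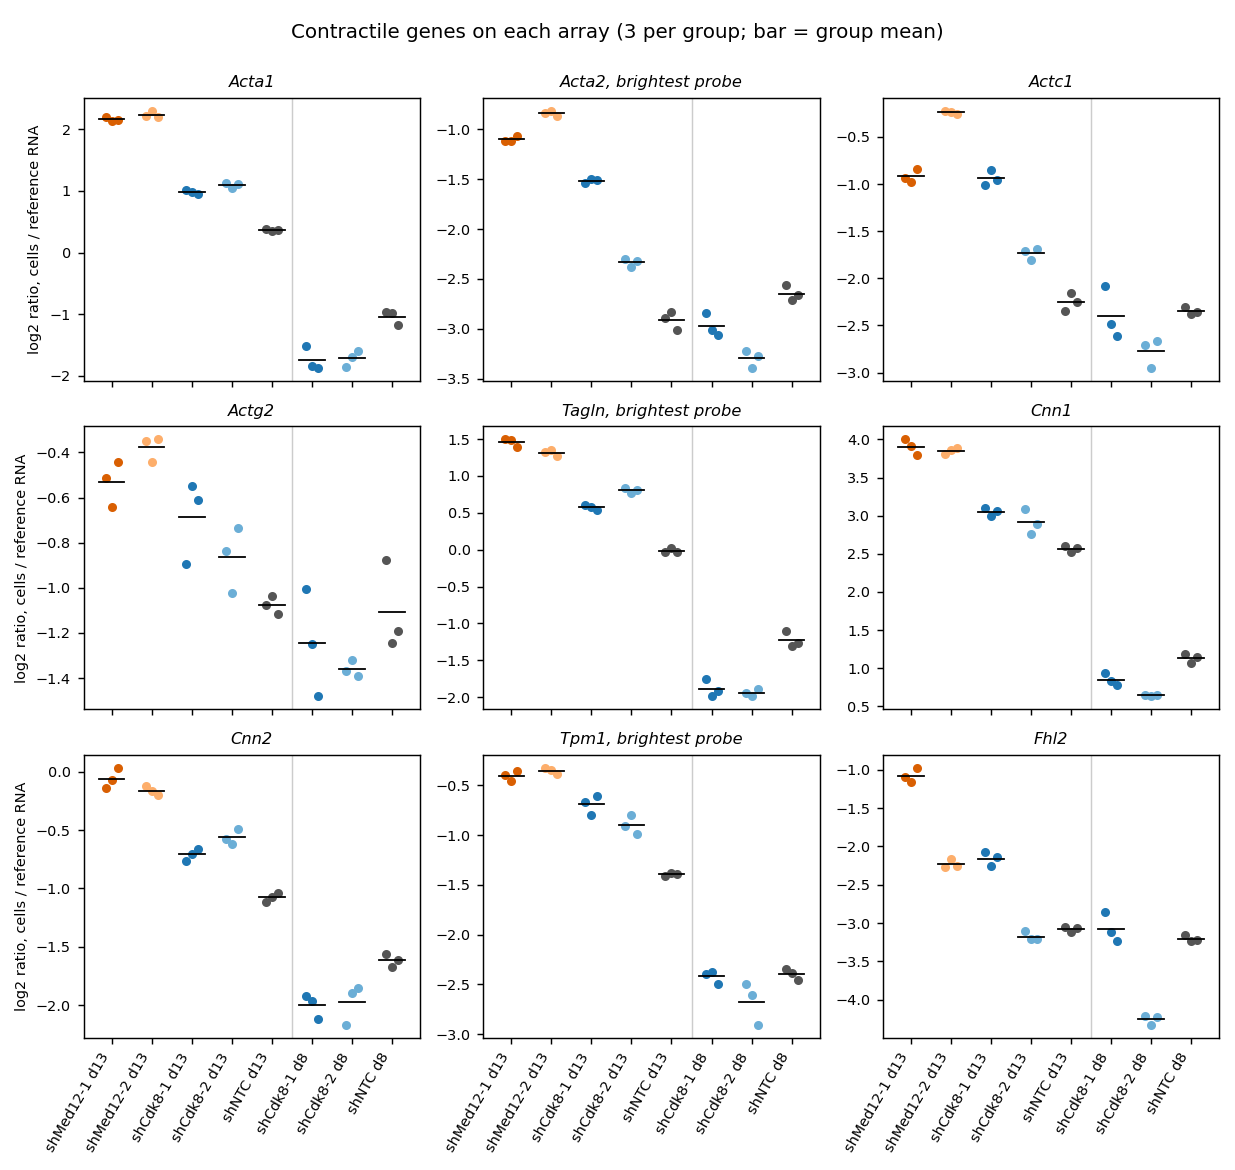
Log2 ratio to the reference RNA (vertical axes, each panel on its own scale) of 9 genes at their brightest probe on each array, by group (d13 is day 13, d8 is day 8), with bars at the group means. In Acta1, Tagln, Cnn1, Cnn2 and Tpm1 all day 13 groups lie above all day 8 groups; in Acta2, Actc1, Actg2 and Fhl2 the shNTC means of both days lie at most 0.26 apart.

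Some slides held both groups of a comparison. With shMed12-2 all 13 probes were higher than with shNTC on slides 1 and 2 (medians 1.24 and 1.28). On slide 8, 12 of 13 were higher in the shCdk8-2 array of day 13 than in the shNTC array (median 0.56), Fhl2 being the exception. On slide 1 all 13 were lower in the shCdk8-2 array of day 8 than in the shNTC array (median -0.57). No slide held shMed12-1 or shCdk8-1 with shNTC of the same day.

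Time was compared within each hairpin, day 13 minus day 8. The arrays are those of the differences from shNTC that chose the members, so the choice can favour a rise with the Cdk8 hairpins. Time differences of the Cdk8 hairpins are therefore given as a description without p-values. The shNTC arrays also entered that choice, and those of day 8 and day 13 lay in different slide positions. Both limit what their p-values below can show. These p-values measure the spread among arrays and cannot tell day from position. All 13 probes were higher on day 13 with shCdk8-1 (10.5% of all probes were called higher) and with shCdk8-2 (11.6%). In shNTC cells 7 were higher and 1 was lower (7.9% and 9.26% of all probes). Acta1 rose by 2.73 with shCdk8-1 (SE 0.081), by 2.82 with shCdk8-2 and by 1.41 with shNTC (limma adjusted p = 2.8e-10). In shNTC cells Tagln rose by 1.21 (adjusted p = 3.5e-11), Cnn1 by 1.43 (adjusted p = 1.8e-11), Cnn2 by 0.54 (adjusted p = 2.2e-05) and Tpm1 by 1.00 (adjusted p = 2.5e-08). All 3 day 13 arrays lay above all 3 day 8 arrays for each of these 5 genes, with shCdk8-1, shCdk8-2 and shNTC, as they did for 15.5%, 18% and 20.8% of all probes.

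The other actins and Fhl2 were not called higher on day 13 in shNTC cells. Acta2 fell by 0.26 on probe 1 (limma adjusted p = 0.0052) and differed by -0.33 on probe 3 (adjusted p = 0.057) and by 0.09 on probe 2 (adjusted p = 0.54). Actc1 differed by 0.09 (adjusted p = 0.6), Actg2 by 0.03 (adjusted p = 0.91) and Fhl2 by 0.13 (adjusted p = 0.3). In Cdk8 knockdown cells these genes rose over the same interval. Acta2 probe 1 rose by 1.45 with shCdk8-1, and the rise with shCdk8-2 was 0.96. Actc1 rose by 1.46 and 1.04, Actg2 by 0.56 and 0.49, and Fhl2 by 0.91 and 1.08 with shCdk8-1 and shCdk8-2. On the slides that held both days of a hairpin (4 and 5 for shCdk8-1, 7 and 8 for shCdk8-2), all 13 probes were higher on day 13. On slides 1 and 2, which held both days of shNTC, 10 and 11 of 13 were. With the scanner software's own log ratio 2 further probes were called with shNTC, Acta2 probe 3 at -0.55 and Fhl2 at 0.16.

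The difference between both intervals, which is the mean Cdk8 effect on day 13 minus that on day 8, is built from contrasts used to pick the genes, so nothing is read from its calls. It was positive for all 13 probes. The fit called 12 of them higher (1.28% of all probes were called higher), and 6 with median centring. The means over both Cdk8 hairpins were 0.98 on day 13 and -0.49 on day 8 for Acta2 probe 1. They were 0.68 on day 13 and -0.69 on day 8 for Acta1, 0.70 and -0.69 for Tagln probe 1, and 0.60 and -0.15 for Tpm1 probe 1.

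**Figure D4:**
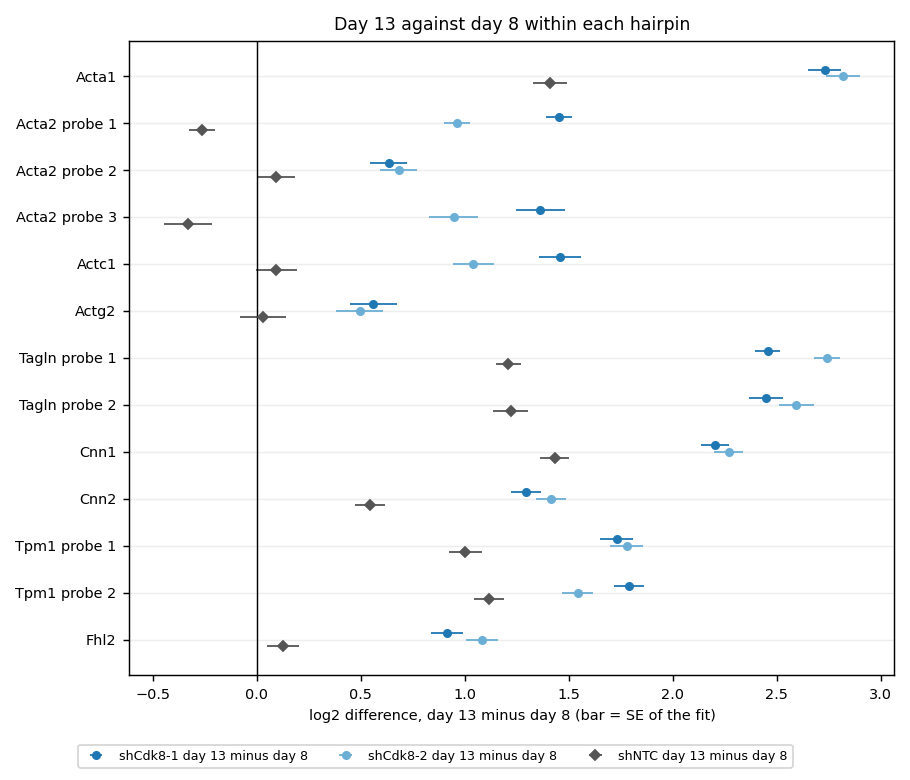
Log2 difference between day 13 and day 8 for each of the 13 probes within shCdk8-1, shCdk8-2 and shNTC cells, with the SE of the fit as bars. Both Cdk8 hairpins lie right of shNTC for every probe, and the shNTC values split into a set from 0.54 to 1.43 (Acta1, Tagln, Cnn1, Cnn2, Tpm1) and a set from -0.33 to 0.13 (Acta2, Actc1, Actg2, Fhl2).

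Differences between hairpins against the same gene, like those between Med12 and Cdk8 knockdown, are built from the contrasts that chose the members, so they are given with their SE as a description and without p-values. Fhl2 was called in all 3 hairpin comparisons. With shMed12-1 it was higher than with shMed12-2 by 1.15 (SE 0.077). With shCdk8-1 it was higher than with shCdk8-2 by 1.02 on day 13 and by 1.19 on day 8. With slide as a block these differences were 1.19, 0.99 and 1.18. Without the compressed array in each, the difference was 1.10 for the Med12 hairpins and 1.08 for the Cdk8 hairpins on day 8.

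On day 13, 5 of 13 probes were called higher and 1 lower with shCdk8-1 than with shCdk8-2 (5.47% and 5.26% of all probes). Acta2 was higher with shCdk8-1 by 0.82 on probe 1 (SE 0.062) and by 0.94 on probe 3, but by 0.03 on probe 2. Actc1 was higher by 0.80 and Tpm1 probe 2 by 0.38. Tagln probe 1 was lower with shCdk8-1, at -0.23, a call lost when slide was a block. For Acta1 the difference was -0.11 and for Cnn1 0.14. Cdk8 itself was at -0.95 with shCdk8-1 and -0.64 with shCdk8-2 against shNTC on day 13, and the part of this in the hairpin differences was not tested.

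On day 8, 6 probes were called higher and 0 lower with shCdk8-1 than with shCdk8-2 (7.71% and 8.94% of all probes): Acta2 probes 1 and 3, Actc1, Cnn1, Tpm1 probe 1 and Fhl2, by 0.20 to 1.19. This count was 3 when the compressed shCdk8-1 array was left out. It was 1 in the fit that blocks on slide, namely Fhl2. Cdk8 itself was at -0.71 with shCdk8-1 and -0.31 with shCdk8-2 against shNTC on day 8. The medians over the 13 probes were -0.29 and -0.49, and the part of Cdk8 level in these differences was not tested. With the Med12 hairpins, 1 probe was called higher and 3 lower with shMed12-1 than with shMed12-2 (10.4% and 9.77% of all probes). Besides Fhl2 these were Actc1 (-0.68), Tpm1 probe 2 (-0.49) and Acta2 probe 1 (-0.26). The fit that blocks on slide did not call the last.

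Med12 knockdown was set against Cdk8 knockdown on day 13 as the mean of both hairpins each, with 6 arrays per side. All 13 probes were called higher with Med12 knockdown (9.33% of all probes were called higher). The difference was 1.16 for Acta1 (SE 0.057), 1.02 for Fhl2, 0.95 for Acta2 probe 1, 0.89 for Cnn1, 0.76 for Actc1 and 0.70 for Tagln probe 1. The lowest was Acta2 probe 2 at 0.31. For 9 of 13 probes all 6 Med12 arrays lay above all 6 Cdk8 arrays, against 2.56% of all probes. Actc1, Actg2, Tpm1 probe 2 and Fhl2 overlapped. With slide as a block all 13 differences lay between 0.31 and 1.11. Med12 and Cdk8 arrays lay in different slide positions throughout, so knockdown and position cannot be told apart.

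Likeness between the members was described over the 24 arrays. The points share arrays, groups and normalization, and the correlations carry no test. At the brightest probe of each gene, Acta2 had a Pearson r of 0.981 with Actc1 and 0.939 with Actg2, and 0.866 with Fhl2, below its r of 0.881 to 0.889 with Acta1, Cnn1, Cnn2 and Tpm1 and near that of 0.862 with Tagln. Tagln had 0.994 with Acta1, 0.991 with Cnn1 and with Cnn2 and 0.981 with Tpm1, but 0.777 with Fhl2. Among the 13723 other genes with a symbol, those most like Acta2 were Sc5d (0.963), Csf1, Cav1, St3gal5 and Ube2j1 (0.948). Cav1, which encodes the caveolar coat protein caveolin-1, had the largest differences of these on day 13. It was 1.27 and 1.39 above shNTC with shMed12-1 and shMed12-2 and 1.22 and 0.57 with shCdk8-1 and shCdk8-2. Sc5d was above shNTC by 0.51 and 0.57 with the Med12 hairpins and by 0.39 and 0.13, the last not called, with the Cdk8 hairpins. Those most like Tagln were S100a10 (0.990), Anxa3, Gadd45b, Phlda1 and Pkp2 (0.987). Anxa3, an annexin, was 1.59 higher on day 13 than on day 8 in shNTC cells, and Gadd45b was 1.16 higher. S100a10, Phlda1 and Pkp2 were higher by 0.48, 0.61 and 0.58.

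A list of 50 further genes of the actin cytoskeleton, smooth muscle and SRF targets was examined beside the members. Probes were kept for 42 of them. With Med12 knockdown 22 were called higher with both hairpins and 1 lower, against 4.43% and 3.62% of all probes. Its medians were 0.38 and 0.31 with shMed12-1 and shMed12-2, against -0.0046 and 0.0024 over all genes. Csrp1, a LIM protein of smooth muscle, was higher by 1.44 and 1.11, Tpm2, another tropomyosin, by 1.48 and 0.91, Lmod1, the leiomodin that nucleates smooth muscle filaments, by 1.28 and 1.03, and Zyx, the focal adhesion protein zyxin, by 1.14 and 0.58. With Cdk8 knockdown on day 13, 11 were called higher with both hairpins and 2 lower (2.14% and 1.74% of all probes), with medians of 0.16 and 0.22. Fhl1 (0.43 and 0.48), Tpm2 (0.51 and 0.37) and the adhesion protein gene Vcl (0.42 and 0.46) were higher, and the intermediate filament gene Des was lower (-0.64 and -0.39). On day 8, 1 was called higher with both Cdk8 hairpins and 5 lower (2.56% and 2.38%), with medians of -0.01 and -0.05. Among these 5, Cald1, the actin-binding protein caldesmon, differed by -0.44 and -0.74, Lmod1 by -0.45 and -0.46 and Pdlim5 by -0.29 and -0.39. Rock2, a kinase that promotes actin filament contraction, was higher by 0.24 and 0.23. Srf itself, singled out after its values were seen, was 0.33 and 0.45 above shNTC with the Med12 hairpins, both called. With shCdk8-1 and shCdk8-2 it was at 0.26, called, and -0.02 on day 13, and at 0.05 and -0.28, called, on day 8.

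**Figure D5:**
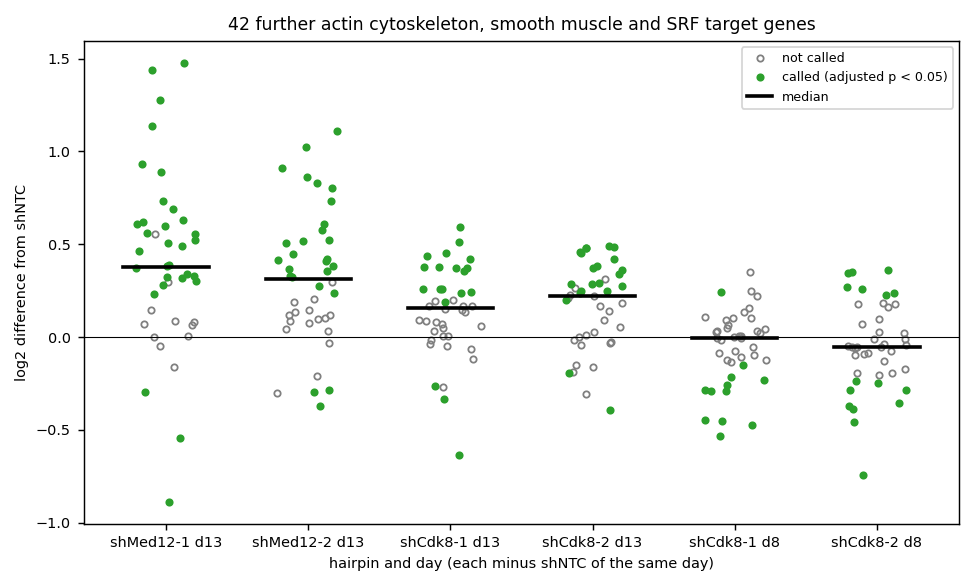
Log2 difference from shNTC of the same day (vertical axis) for 42 further genes of the actin cytoskeleton, smooth muscle and SRF target list, 1 point per gene, by hairpin and day; filled points were called and bars are medians. The medians lie between 0.16 and 0.38 on day 13 and at -0.01 and -0.05 on day 8.

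Marker lists of smooth muscle and of other cell types gave these values beside the members. Of 8 smooth muscle genes kept, all from the list above, 3 were called higher with both Med12 hairpins (Tpm2, Lmod1 and Cald1) and 0 lower. The medians were 0.56 and 0.16. Myh11 (-0.05 and 0.04), Myocd (0.0015 and 0.08) and Mylk (0.56 and 0.12) were not called with either. With both Cdk8 hairpins on day 13, Tpm2 was called higher and Des lower, with medians of 0.07 and 0.03. Over all probes, 4.43% were called higher and 3.62% lower with both Med12 hairpins, and 2.14% and 1.74% with both Cdk8 hairpins on day 13. Of 23 striated muscle genes kept, 5 were higher and 1 lower with both Med12 hairpins, with list medians of 0.13 and 0.12. The troponin genes Tnnt2 (0.75 and 0.69), Tnnc1 (0.47 and 0.75) and Tnni2 (0.69 and 0.47) were among the higher. The atrial myosin light chain gene Myl7 (-1.06 and -0.69) was the lower. With Cdk8 knockdown on day 13, 1 was higher (Nkx2-5) and 1 lower (Des), with list medians of 0.03 and 0.06. Of 17 fibroblast, feeder and mesenchyme genes kept, 4 were higher with both Med12 hairpins, namely Col1a1 (1.04 and 0.94), Vim (0.55 and 0.78), Col5a1 and S100a4. Vim was the only one called with both Cdk8 hairpins on day 13 (0.72 and 0.75). The medians of this list were 0.50 and 0.30 with shMed12-1 and shMed12-2. With shCdk8-1 and shCdk8-2 on day 13 they were 0.31 and 0.20. The mean log2 ratio of that list ran from -4.17 to -3.98 with shMed12-1, from -4.41 to -4.05 with shMed12-2, from -4.52 to -4.18 with shCdk8-1 and from -4.49 to -4.09 with shCdk8-2, against -4.70 to -4.39 with shNTC on day 13. Of the 12 ES cell genes, 0 were higher and 2 lower (Klf4 and Tcl1) with both Med12 hairpins, and 0 higher and 3 lower (also Tbx3) with both Cdk8 hairpins on day 13. By single hairpin, 8 were called lower with shMed12-1 (median -0.72) and 3 with shMed12-2 (median -0.36). With shCdk8-1 and shCdk8-2, 4 and 3 were called lower on day 13 (medians -0.34 and -0.17) and 4 and 1 on day 8 (medians -0.57 and -0.09). None of the single hairpins gave a higher call. Of all 28240 probes, 6623 and 4767 were called with shMed12-1 and shMed12-2, of which 3409 and 2401 were higher. With shCdk8-1 and shCdk8-2, 5.89% and 5.43% of all probes were called lower on day 13 and 8.41% and 6.56% on day 8. The mean log2 ratio of the ES cell genes on day 13 ran from 3.88 to 4.46 with shMed12-1, the compressed array included, and from 4.37 to 4.48 with shMed12-2. With shNTC of that day it ran from 4.88 to 4.98. On day 8 it ran from 3.999 to 4.84 with shCdk8-1, the other compressed array included, against 5.01 to 5.09 with shNTC. Compression toward 0 lowers such high ratios, and its part in the lower values of these hairpins was not tested. The part of other cell types in the rise of the contractile genes was not tested.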

How the data were processed

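RNA of R1 cells (Cy5) and a universal mouse reference RNA (Cy3) were measured on 24 two-colour Agilent arrays without dye swaps, per the labels' protocols. Spots were quantified with Agilent Feature Extraction 10.7, per the submitters' processing notes. The deposited scanner files give median spot and background intensity, not normalized, and a log10 ratio made by Feature Extraction, per the file headers. The authors' deposited table holds log2 ratios that matched that log10 ratio turned to log2 (slope 1.00), with column medians of -0.0049 to 0.12, so how it was centred is unknown.

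Intensities were corrected with normexp (offset 50) and normalized by loess within arrays, without control and outlier spots, and spots of a probe were averaged. A probe was kept (28240 were) if at least 1 group had it well above background in the Cy5 channel of its 3 arrays, and 62 with missing values were dropped. Probes were named from their accession through a RefSeq table of GRCm38.p6. One limma fit (limma 3.58.1, R 4.3.3, 16 residual degrees of freedom) covered all 8 groups, with two-sided moderated tests and Benjamini-Hochberg adjustment over all kept probes. The number of arrays limits the precision. The fitting steps were tested on simulated data.

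The members, gene lists and comparisons were chosen with earlier results of these data known. Every member probe is named, the brightest first, with up to 4 genes of each list per knockdown and day (the largest mean differences among those called with both hairpins) and the 5 genes most like Acta2 and Tagln. Replicate numbers did not pair arrays: deviations of same-numbered arrays correlated at -0.008 on average over 84 pairs, and 7 of 24 arrays correlated best with their own number. Alternatives were the Feature Extraction ratio, the authors' table, median centring, another normexp fit, no dim-probe filter, slide or replicate block, only the compared groups, and leaving out arrays.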

Additional observations from a re-analysis of the deposited data

Results flagged for a closer look

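For 12 of the 13 probes the fit called the Cdk8 effect (mean of both hairpins minus shNTC) higher on day 13 than on day 8. Of all probes, 1.28% were called higher. The difference was 1.47, 0.56 and 1.48 for Acta2 probes 1, 2 and 3, 1.36 for Acta1 and 1.16 for Actc1. For the actin-binding proteins it was 1.39 and 1.30 for Tagln probes 1 and 2, 0.80 for Cnn1, 0.81 for Cnn2, and 0.75 and 0.55 for Tpm1 probes 1 and 2. For Fhl2 it was 0.87, where the effects on day 13 were 0.92 with shCdk8-1 and -0.10 with shCdk8-2, so that its mean joins unequal values. The genes were chosen with these contrasts known, so the differences are a description and nothing is read from the calls. Actg2 had 0.50 and was not called. Groups of 3 arrays are too small for a search for single outlying arrays.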

How the results depend on the processing

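No called value changed its sign under the 9 alternatives tried or when 1 array at a time was left out. Median centring in place of loess gave the largest losses: 11 of 13 probes were called with shMed12-1 and 12 with shMed12-2, but 4 with shCdk8-1 and 2 with shCdk8-2 on day 13, 1 and 6 on day 8, 6 for the Cdk8 effect on day 13 against day 8, and 1 each between the Cdk8 hairpins on day 8 and between the Med12 hairpins. For the Cdk8 effect the count over all probes was 25 with median centring, 175 with slide as a block and 1406 with Feature Extraction's ratio, against 569. For shMed12-1 against shNTC it was 1589, 1775 and 8191, against 6623, and for shCdk8-1 against shCdk8-2 on day 8 it was 951, 634 and 6992, against 4700. Slide as a block gave 3 calls with shCdk8-1 on day 8 and 1 between the Cdk8 hairpins on day 8. A fit of only the compared groups gave 4 and 1 for these comparisons, and leaving out both compressed arrays 3 for the hairpins. Without 1 array at a time the calls between the Cdk8 hairpins on day 8 ran from 3 to 6, the lowest without shCdk8-1 day 8 replicate 1. In the other comparisons these ranges stayed within 1.5 times the count. The replicate block left the count of member calls as it was in all 14 comparisons (12 for the Cdk8 effect on day 13 against day 8, 13 for Med12 minus Cdk8 knockdown). Of 182 single probe differences 141 were called. The 14 comparisons share groups and the members were chosen with these data, so this total is a description. Of all 28240 probes, a comparison called from 569 to 7516. Of the 141 member calls, 53 were lost with median centring, 21 with slide as a block and 1 with Feature Extraction's ratio. The cause of these losses was not tested. All member probes were well above background on every array.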
